A study of Mus musculus with 6 samples.

Results

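Regions that held peaks of Ring1B and of Suz12, and no peak of Cbx7 or RYBP, made up 2099 of the 13390 regions obtained by joining the peaks of 4 chromatin immunoprecipitation and sequencing (ChIP-seq) lists from mouse embryonic stem cells. Peaks were joined when they shared at least 1 bp. The regions were chosen by the presence of Ring1B and Suz12 peaks and the lack of the other 2, so their makeup is a description and not a finding. They are called Ring1B-Suz12 regions here. They accounted for 38.4% of the 5470 regions with both Ring1B and Suz12 (95% Wilson interval 37.1 to 39.7%). The other such regions held Cbx7 without RYBP (1533), RYBP without Cbx7 (1049) or both (789), and are called the Cbx7, RYBP and 4-subunit regions.

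The cells were wild-type E14Tg2A, an embryonic stem cell line of strain 129/Ola, kept without feeder cells on gelatin in serum with leukemia inhibitory factor. All samples were of this genotype and culture, with no treatment. The libraries of the 4 targets differed in the antibody, and whether they were prepared together is not known here. Each of the 4 targets had 1 library, and 2 libraries with rabbit IgG were not analysed here. The lists give positions alone, so depth, peak height and the spread between replicates are unknown, and intervals below cover the sampling of regions and not the variation between libraries. Expression was not measured, so the cell type could not be checked against marker genes.

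Polycomb repressive complexes keep developmental genes silent in embryonic stem cells. PRC2, of which Suz12 is a core subunit, trimethylates lysine 27 of histone H3. PRC1, of which Ring1B is the catalytic subunit, ubiquitinates histone H2A. In canonical PRC1 a Cbx protein, mainly Cbx7 in these cells, binds the PRC2 mark. Variant PRC1 carries RYBP or its homologue Yaf2 in place of a Cbx protein. Yaf2 and the other Cbx proteins were not profiled, and a missing peak means here only that none was listed.

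Ring1B-Suz12 regions had a lower median width than the other kinds with Ring1B and Suz12. Their width had a median of 1654 bp (95% order-statistic interval 1623 to 1685 bp, n = 2099), with quartiles of 1256 and 2139 bp, and ranged from 217 to 6325 bp. Only 4.72% (99 regions) were wider than 3000 bp. They held 2130 Ring1B peaks, 30.5% of that list, but 22.7% of its length, and 2140 Suz12 peaks, 26.6% of that list and 21.8% of its length. Ring1B peaks in them had a median width of 1413 bp (1376 to 1448 bp), compared with 1716 bp in RYBP regions, 2476 bp in Cbx7 regions and 2867 bp in 4-subunit regions. Suz12 peaks followed the same order, with medians of 1500, 1817, 2396 and 2892 bp. No interval of a median overlapped that of another kind. Median region widths were 2049 bp in RYBP, 2853 bp in Cbx7 and 3242 bp in 4-subunit regions. Regions without Cbx7 and RYBP that held Suz12 alone or Ring1B alone were narrower than Ring1B-Suz12 regions, with medians of 853 and 670 bp. These widths come from the peaks that defined the kinds and were not tested.

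The share of regions without Cbx7 and RYBP fell step by step with length. Regions with Ring1B and Suz12 were divided into quintiles by the mean of their Ring1B and Suz12 lengths. Ring1B-Suz12 regions made up 73.0% of the shortest quintile (799 of 1095), then 54.0%, 40.6% and 19.3%, and 5.03% of the longest (55 of 1094). Cbx7 regions rose over the same quintiles from 7.40% to 51.0%, and 4-subunit regions from 0.913% to 35.7%. RYBP regions took the largest share, 26.6%, in the second quintile and 8.23% in the longest. The fall is not independent of the rule. A longer region has more base pairs on which a Cbx7 or RYBP peak can lie, and 1 such peak takes it out of the Ring1B-Suz12 regions. How much of the fall follows from this was not tested. Whether longer peaks reflect stronger signal was not tested, since the lists give no height.

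**Figure D1:**
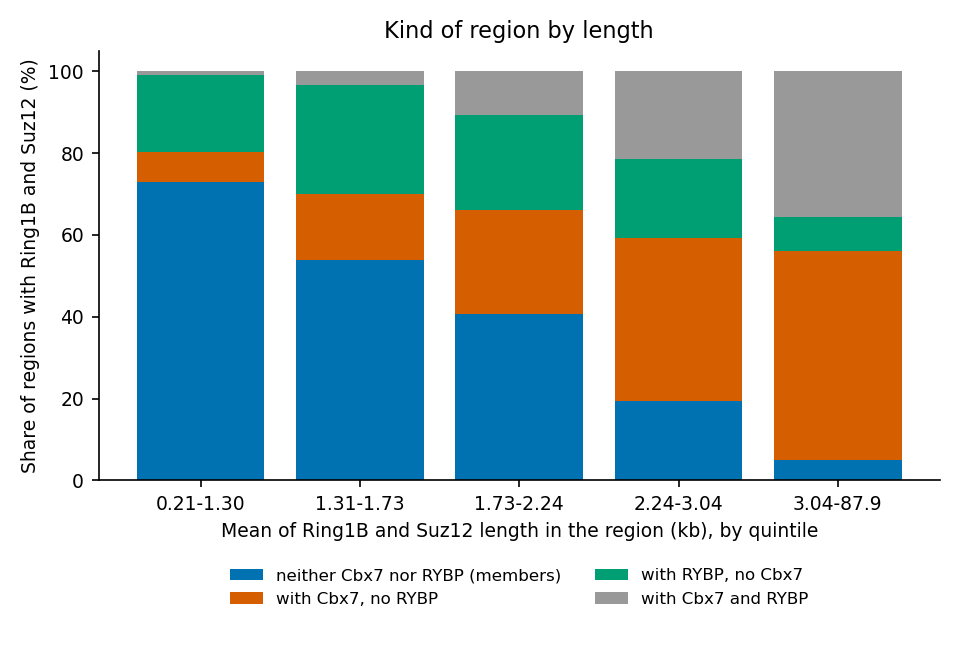
Share of regions with Ring1B and Suz12 (vertical axis, %) that belong to each of 4 kinds, by quintile of the mean of Ring1B and Suz12 length (horizontal axis, kb). Regions without Cbx7 and RYBP fall from 73.0% of the shortest quintile to 5.03% of the longest, while those with Cbx7 and no RYBP rise from 7.40% to 51.0%. The kinds are not independent of length, since a longer region has more room for a Cbx7 or RYBP peak.

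Within the regions, 1 peak of each subunit was the rule. In 2037 of 2099 regions (97.05%, 96.2 to 97.7%) a single Ring1B peak met a single Suz12 peak. A further 32 held 1 Ring1B and 2 Suz12 peaks, 21 held 2 Ring1B and 1 Suz12 peak, and 9 held other numbers. RYBP regions were similar, with 96.1% one-to-one (94.7 to 97.1%). In Cbx7 regions 83.6% were one-to-one (81.6 to 85.3%) and in 4-subunit regions 86.7%, but those regions were also longer.

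Ring1B and Suz12 shared most of the stretch in most regions, where the rule itself requires at least 1 shared bp. A median of 82.3% of the region was covered by both (81.6 to 82.9%), with quartiles of 71.1 and 90.1%. In 95.3% of regions both covered at least 50% of the length, and in 25.1% (23.3 to 27.0%) at least 90%. A median of 95.9% of the Ring1B length lay under Suz12, and 90.8% of the Suz12 length under Ring1B. In one-to-one regions the peak centres lay a median of 97.5 bp apart (93.5 to 105.0 bp).

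Suz12 reached slightly farther out than Ring1B. The Suz12 peak was longer by a median of 63 bp (48 to 79 bp, n = 2037), and Suz12 covered more base pairs than Ring1B in 59.65% of regions (57.5 to 61.7%). The Suz12 edge lay outside the Ring1B edge by a median of 18 bp on the left and 19 bp on the right, so neither side was favoured. Single edges scattered much more widely than this shift. Of 4074 edges, 46.7% (1902) matched within 100 bp, and the median distance between edges was 113 bp. In Cbx7 regions the Suz12 peak was shorter than Ring1B by a median of 8 bp, with an interval from 25 bp shorter to 8 bp longer, and in RYBP regions it was longer by 33.5 bp (10 to 57 bp).

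The nested arrangement followed the same direction. Ring1B lay wholly inside Suz12 in 637 regions (30.3%, 28.4 to 32.4%), and Suz12 wholly inside Ring1B in 399 (19.0%, 17.4 to 20.7%). In 1014 regions the peaks were staggered, with Suz12 displaced to the left in 517 and to the right in 497. Cbx7 regions were nearer to balance, with Ring1B inside in 20.8% (18.9 to 22.9%) and Suz12 inside in 24.2% (22.1 to 26.4%), whose intervals overlapped. RYBP regions resembled Ring1B-Suz12 regions, with 30.6% and 21.5%.

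**Figure D2:**
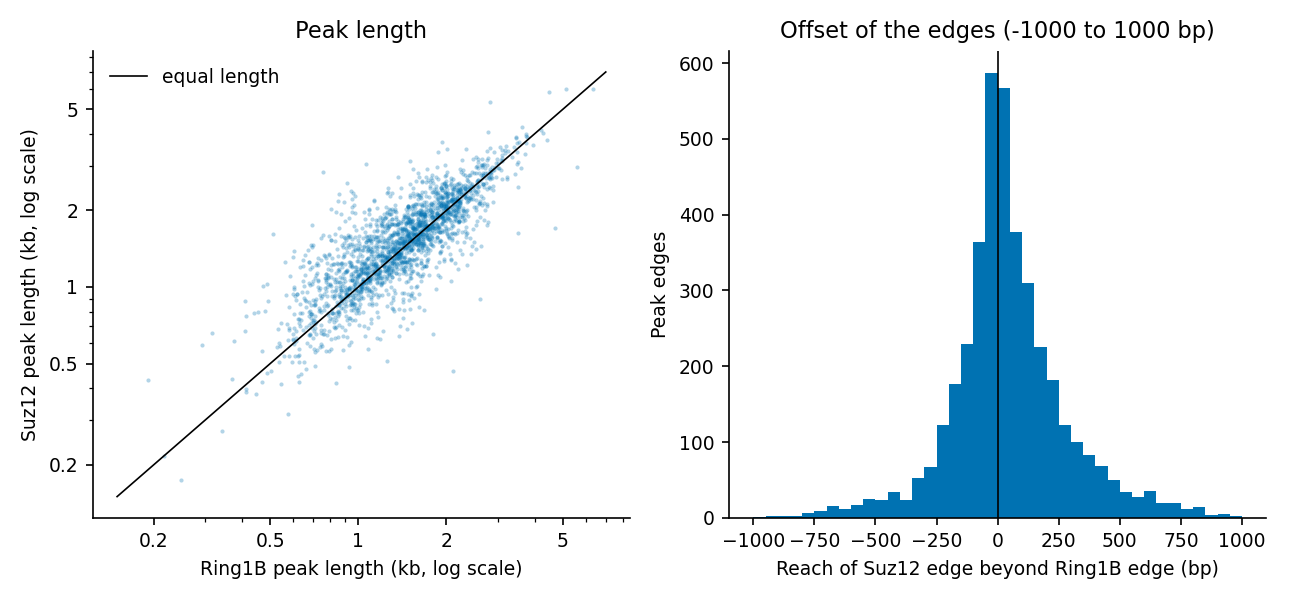
Left, length of the Ring1B peak (horizontal axis, kb, log scale) against that of the Suz12 peak (vertical axis, kb, log scale) in the 2037 regions with 1 of each, where each point is a region and the line marks equal length. Right, number of peak edges by the distance that the Suz12 edge reaches beyond the Ring1B edge (bp, positive outwards), with 42 of 4074 edges beyond 1000 bp left out. The points lie on both sides of the line, and the edges centre near 0 with more on the positive side.

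Among Ring1B-Suz12 regions the share covered by both rose with the mean of Ring1B and Suz12 length, from 79.1% in the shortest quintile to 87.7% in the longest. By region width it changed little. It was 81.6% at 217 to 1255 bp and 82.0% at 1256 to 1654 bp. At 1655 to 2139 bp and at 2140 to 6325 bp it was 82.8%. The quintiles were set over all regions with Ring1B and Suz12, and the width groups over Ring1B-Suz12 regions alone. The series thus differ in their bins as well as in the measure of length. At a given region width, a larger shared part also makes the mean length larger. The rise is therefore not shown to be a trait of longer regions. The kinds were set side by side at like mean length. Among regions whose mean Ring1B and Suz12 length was 1000 to 2000 bp, both subunits covered a median of 82.1% of Ring1B and Suz12 sequence in Ring1B-Suz12 regions (81.3 to 82.9%, n = 1273). The median was 83.4% in RYBP regions (81.65 to 84.8%, n = 563), 86.9% in Cbx7 regions (85.6 to 88.15%, n = 357) and 88.8% in 4-subunit regions (86.3 to 90.3%, n = 99). The value of Ring1B-Suz12 regions was below that of Cbx7 regions on 18 of 20 chromosomes, and below that of RYBP regions on 10 of 19. In each length quintile the median of Cbx7 regions was higher than that of Ring1B-Suz12 regions: 86.1% against 79.1% in the shortest, 88.6% against 83.7% in the middle and 92.7% against 87.7% in the longest. The median distance between Ring1B and Suz12 edges in the middle quintile was 140.5 bp in Ring1B-Suz12 regions (126 to 155 bp), 131 bp in RYBP regions (111 to 151 bp) and 95.5 bp in Cbx7 regions (86 to 110 bp). Regions on a chromosome share their libraries and are not replicates, so these differences carry no p-value.

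**Figure D3:**
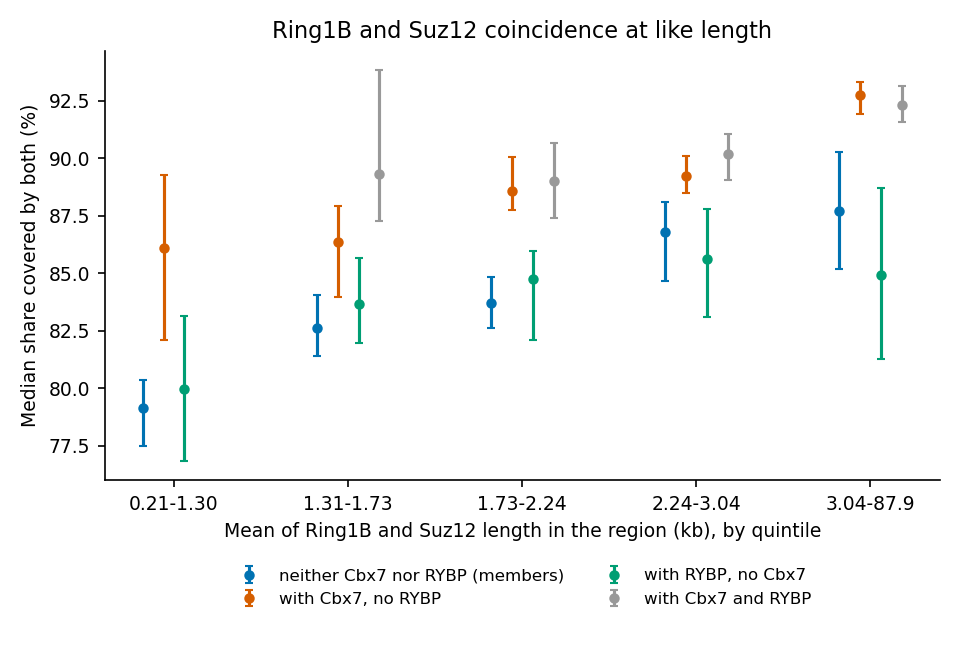
Median share of Ring1B and Suz12 sequence that both cover (vertical axis, %, not starting at 0) by quintile of mean Ring1B and Suz12 length (horizontal axis, kb) for 4 kinds of region, with 95% order-statistic intervals as bars. The kind with both Cbx7 and RYBP has too few regions in the shortest quintile to be drawn. In every quintile the median of the regions without Cbx7 and RYBP lies below that of the Cbx7 regions, from 79.1% against 86.1% in the shortest to 87.7% against 92.7% in the longest.

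Most Ring1B-Suz12 regions had no Cbx7 or RYBP peak nearby, as did most other regions that lack both. Within 10 kb of the region's edges, 305 had a Cbx7 peak (14.5%, 13.1 to 16.1%) and 288 a RYBP peak (13.7%, 12.3 to 15.3%). Over all 4878 regions that lack both subunits, the shares were 12.7% for Cbx7 and 13.8% for RYBP. The shares of Ring1B-Suz12 regions, which are part of that background, lay close to it. The remaining 1624 (77.4%, 75.5 to 79.1%) had neither peak within 10 kb, and 775 (36.9%) had neither within 100 kb. Over all 4878 regions the same shares were 78.7% and 37.0%. With peaks within 1 kb joined, the share of Ring1B-Suz12 regions with Cbx7 within 10 kb fell to 7.998% (6.86 to 9.31%). That setting takes out regions within 1 kb of a Cbx7 peak, 96 of the 305, so the fall follows in part from it. The median distance to the nearest Cbx7 peak was 220.9 kb (202.4 to 236.4 kb), and to the nearest RYBP peak 80.6 kb (73.6 to 89.6 kb). The RYBP list holds 6872 peaks and the Cbx7 list 2754, so the distances are not on a common scale.

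Regions with Suz12 alone (1984) and Ring1B alone (795) also lack Cbx7 and RYBP. The rule removed regions that overlap such a peak from all these kinds. It thus cut short the distance compared here, and the tests are not independent of it. Median widths also differed, at 853 bp for Suz12-only, 670 bp for Ring1B-only and 1654 bp for Ring1B-Suz12 regions. A Cbx7 peak within 10 kb was more frequent beside Ring1B-Suz12 regions than beside Ring1B-only regions, 14.5% against 9.43% (odds ratio 1.63, exact 95% interval 1.24 to 2.16, adjusted p = 0.00106, Fisher's exact, two-sided, adjusted by Benjamini and Hochberg over 4 tests). The share was higher on 16 of 20 chromosomes. That call was lost among regions of 1000 to 2000 bp, a band chosen after the data were seen (odds ratio 1.64, 0.880 to 3.33, adjusted p = 0.187, same exact test), and the direction turned when peaks in the lowest quartile of width of each list were left out (0.832, 0.560 to 1.27, adjusted p = 0.465, exact test). With peaks within 1 kb joined, the odds ratio was 4.22 (2.42 to 7.96, adjusted p = 7.3e-09, exact test). That setting takes regions within 1 kb of a Cbx7 peak out of both kinds. Before joining, these were 50 of the 75 Ring1B-only regions with Cbx7 within 10 kb, and 96 of the 305 Ring1B-Suz12 regions. The higher ratio thus depends on the joining rule and is not added support. Within 1 kb the order was the other way, with Cbx7 beside 4.57% of Ring1B-Suz12 regions and 6.29% of Ring1B-only regions, whose intervals overlapped.

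Against Suz12-only regions the same share was 14.5% and 12.1% (odds ratio 1.23, exact 95% interval 1.02 to 1.48, adjusted p = 0.0544 by the same exact test, higher on 14 of 20 chromosomes), which did not pass the threshold of 0.05. It passed without X and Y (odds ratio 1.29, adjusted p = 0.0152, exact test) and among regions of 1000 to 2000 bp (1.64, 1.20 to 2.26, adjusted p = 0.00564, exact test). The odds ratio was 1.03 with the RYBP list ignored (0.862 to 1.22, adjusted p = 0.794, exact test) and 1.045 at a distance of 50 kb (0.903 to 1.21, adjusted p = 0.744, exact test). For RYBP no difference was detected: 13.7% of Ring1B-Suz12 regions compared with 14.0% of Suz12-only regions (odds ratio 0.976, 0.814 to 1.17, with an adjusted p of 0.821 by the exact test) and 13.2% of Ring1B-only regions (odds ratio 1.045, 0.818 to 1.34, adjusted p = 0.821, exact test). These tests treat regions as independent although neighbours are not, so the p-values are too small. Regions from 1 library per target are not replicates, so the p-values say nothing about the variation between libraries.

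**Figure D4:**
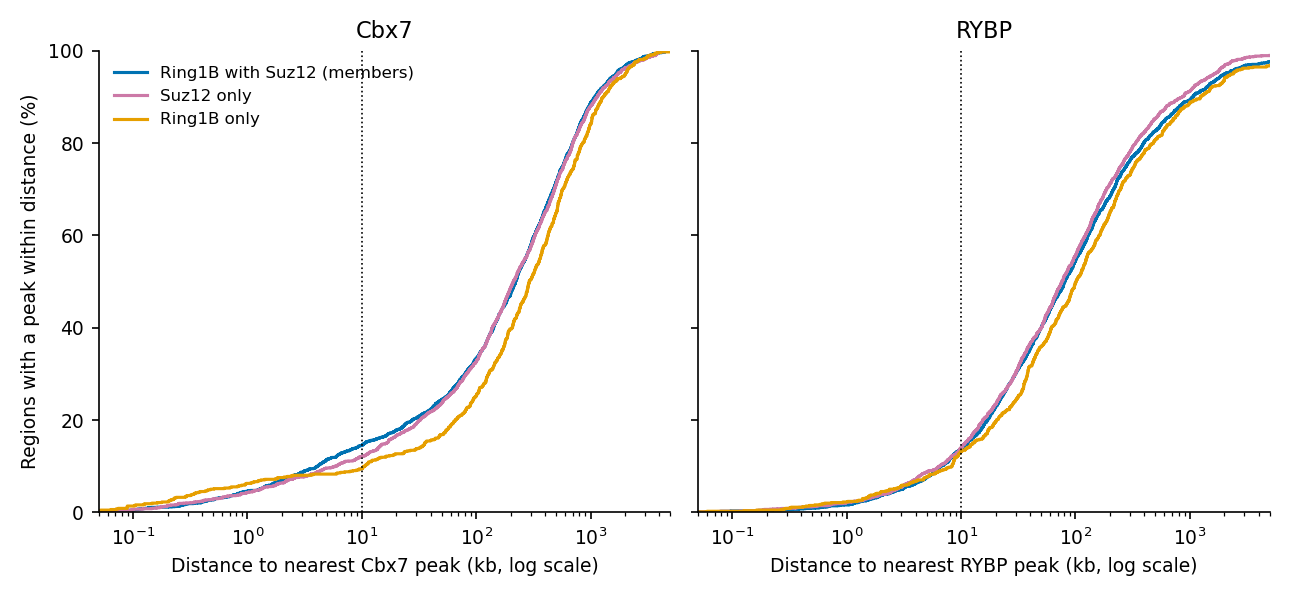
Share of regions (vertical axis, %) with a Cbx7 peak (left) or a RYBP peak (right) within a given distance of the region's edge (horizontal axis, kb, log scale), for regions with Ring1B and Suz12, Suz12 only or Ring1B only, all without Cbx7 and RYBP. The dotted line marks 10 kb, where the Cbx7 curves stand at 14.5%, 12.1% and 9.43% and the RYBP curves at 13.7%, 14.0% and 13.2%.

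Where Ring1B-Suz12 regions flanked Cbx7, the neighbour was in most cases a region with Ring1B and Suz12, as are most regions with Cbx7. The nearest Cbx7 peak belonged to a Cbx7 region in 204 of the 305 cases (66.9%) and to a 4-subunit region in 95 (31.1%), and in 5 cases (1.64%) it stood alone. Of all 2550 regions with Cbx7, 60.1% were Cbx7 regions, 30.9% were 4-subunit regions and 7.88% held Cbx7 alone. These neighbours had a median width of 3455 bp, and 276 of the 305 Ring1B-Suz12 regions (90.5%) were narrower than the neighbour. Wherever they lay, Cbx7 and 4-subunit regions had higher medians, 2853 and 3242 bp, than Ring1B-Suz12 regions, 1654 bp. The count is therefore not a trait shown for flanking regions. Cbx7 lay on 1 side in 250 cases and on both sides in 55. RYBP neighbours were more mixed: the nearest RYBP peak belonged to a 4-subunit region in 100 of 288 cases (34.7%), stood alone in 89 (30.9%) and belonged to a RYBP region in 73 (25.3%). Of all 6756 regions with RYBP, these kinds made up 11.7%, 62.9% and 15.5%. Neither makeup was tested against that of all regions. RYBP lay on 1 side in 257 cases and on both sides in 31.

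Regions beside Cbx7 had a lower median width than those with neither peak nearby. Those with a Cbx7 peak within 10 kb had a median width of 1480 bp (1385 to 1581 bp, n = 305), and those within 1 kb of 1342 bp (1137 to 1468 bp, n = 96). Regions with a RYBP peak within 10 kb measured 1794 bp (1676 to 1940 bp, n = 288), and those with neither 1661 bp (1628 to 1697 bp, n = 1624). Within 1 kb of Cbx7, Ring1B lay inside Suz12 in 17.7% (11.4 to 26.5%, 17 of 96) and Suz12 inside Ring1B in 28.1% (20.1 to 37.8%, 27 of 96). For the 305 regions with Cbx7 within 10 kb the shares were 26.9% and 21.6%, the same order as elsewhere. They were 30.6% (28.4 to 32.9%) and 19.0% (17.1 to 20.9%) in the regions with neither peak within 10 kb. These differences were not tested. No shift toward or away from a Cbx7 peak was detected. Where Cbx7 lay on 1 side only and the region held 1 peak of each subunit, the Suz12 edge reached beyond Ring1B by a median of 3 bp on the facing side and 24 bp on the far side (n = 237), and the median difference of -6 bp had an interval from -63 to 14 bp. For RYBP, under the same restriction, the difference was -19 bp (-57 to 19 bp, n = 249).

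Many Ring1B-Suz12 regions stood alone, as did many regions of the other kinds. No other region of any kind lay within 10 kb of 1378 (65.65%, 63.6 to 67.65%), and none within 100 kb of 484 (23.1%). Another 246 (11.7%) had only neighbours that likewise lacked Cbx7 and RYBP, 187 (8.91%) had Cbx7 without RYBP nearby, 170 (8.10%) RYBP without Cbx7, and 118 (5.62%) both. The share with no region within 10 kb was 65.1% for Suz12-only, 72.1% for Ring1B-only, 68.8% for RYBP, 55.9% for Cbx7 and 64.4% for 4-subunit regions. For 100 kb the shares were 21.9%, 27.9%, 17.5%, 26.2% and 17.2% in the same order. The Ring1B-Suz12 shares lay within these ranges. Of the 721 with a neighbour, the nearest was another Ring1B-Suz12 region in 173 (24.0%), a Cbx7 region in 152 (21.1%), a Suz12-only region in 137 (19.0%) and a RYBP-only region in 79 (11.0%). These kinds made up 15.7%, 11.4%, 14.8% and 31.7% of all regions. Runs of Ring1B-Suz12 regions spaced by up to 10 kb, with no other kind between, were few: 83 pairs, 5 runs of 3 and 4 runs of 4.

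The widest Ring1B-Suz12 region, at chrX:45693403-45699728 in mm9 coordinates as the lists give them, spanned 6325 bp, of which both subunits covered 95.02%, and its nearest Cbx7 peak lay 106.3 kb away. The next, chr2:127948163-127954228, spanned 6065 bp, with 83.2% covered by both. At chr3:87596517-87602357 a Ring1B peak of 4493 bp lay within a Suz12 peak of 5840 bp, 5.44 kb from a RYBP peak. The region with most peaks, chr10:42354538-42357388, held 3 Ring1B and 2 Suz12 peaks 399 bp from a Cbx7 peak. Another, chr2:160185587-160189515, held 2 of each, 140 bp from a Cbx7 peak and 1.99 kb from a RYBP peak, and chr5:120751100-120754868 held 2 of each, 119.2 kb from Cbx7. Of these 3 regions, 2 lay within 1 kb of a Cbx7 peak, as did 4.57% of all Ring1B-Suz12 regions. Ties in peak number were settled by width, and a link between peak number and Cbx7 was not tested.

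The closest approach to Cbx7 was 11 bp, at chr11:96152837-96154048, a region of 1211 bp that ended where a Cbx7 region of 14849 bp began. The lists do not say whether an end is part of its peak, and if it is, this region joins the Cbx7 region and drops out, which leaves 2098. The next were 26 bp at chr6:6806263-6807067 and 28 bp at chr15:83610341-83612313, beside Cbx7 regions of 1603 and 1566 bp. The closest to RYBP were 10 bp at chr6:114580499-114582950, beside a region of Suz12 and RYBP, 21 bp at chr11:77302118-77304346, beside a RYBP-only region, and 48 bp at chr1:92950025-92951048, beside a RYBP region. The most remote lay on X: chrX:78315661-78316929 was 4471 kb from the nearest Cbx7 and 5103 kb from the nearest RYBP peak, and chrX:5044841-5046118 and chrX:61528399-61530685 were 3423 and 3379 kb from Cbx7. These remote regions were of ordinary width, 1268, 1277 and 2286 bp.

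A few windows were crowded. The 2099 regions lay in 1701 windows of 200 kb, of which 1405 held 1. The most crowded, chr11:96000000-96200000, held 10 Ring1B-Suz12 regions of 425 to 3751 bp, interspersed with 10 Cbx7 regions and 8 Suz12-only regions, and all 10 had a Cbx7 peak within 10 kb. The next, chr18:37400000-37600000, held 8 regions of 1183 to 1932 bp and no Cbx7 peak, and 2 of the 8 had a RYBP peak within 10 kb. A nearby window, chr18:37000000-37200000, held 7 regions, of which 6 had Cbx7 within 10 kb. Crowding thus occurred both with and without Cbx7.

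Chromosome X stood apart. Ring1B-Suz12 regions made up 101 of its 175 regions with Ring1B and Suz12 (57.7%, 50.3 to 64.8%), compared with 37.7% on the autosomes (36.4 to 39.0%), where single chromosomes ranged from 31.0% on 19 to 43.7% on 16. RYBP was found in 2.86% of such regions of X and in 34.6% of autosomal ones. With RYBP left out of the rule, 105 of the 175 regions of X lacked Cbx7, or 60% (52.6 to 67.0%). The share was 57.5% on autosomes (56.1 to 58.8%), and on this measure X lay within the autosomal range of 50% on 19 to 64.2% on 11. None of the 101 on X had a RYBP peak within 10 kb (upper 95% Wilson bound 3.66%), and 8.91% had a Cbx7 peak (4.76 to 16.1%), compared with 14.8% on autosomes. Their median width was 1394 bp (1310 to 1550 bp), below 1670 bp on autosomes (1637 to 1702 bp). No region on Y held both Ring1B and Suz12. The number of copies of X in each library was not measured.

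**Figure D5:**
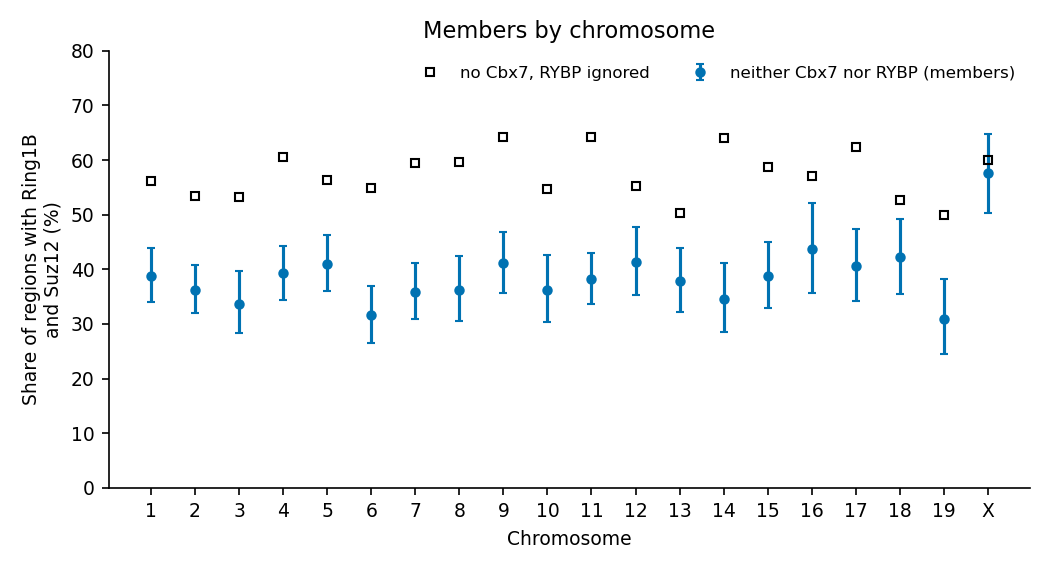
Share of regions with Ring1B and Suz12 (vertical axis, %) that lack both Cbx7 and RYBP (filled points, 95% Wilson intervals as bars) or lack Cbx7 with RYBP ignored (open squares), by chromosome (horizontal axis). The filled point of X, 57.7%, lies above the autosomes, and its open square, 60%, lies among theirs.

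The rule turns on 1 shared base pair, so the values around it are given. Ring1B and Suz12 shared fewest base pairs at chr7:25421157-25424142 (37 bp), chrX:133242291-133243435 (73 bp) and chr1:90911831-90913075 (74 bp). Just outside, a Ring1B-only and a Suz12-only region were separated by 17 bp at chrX:50264960-50266483, by 40 bp at chr3:100488873-100490434 and by 44 bp at chr13:91510261-91512204, and 11 such adjacent pairs lay within 1 kb. On the side of exclusion, 1 of 1533 Cbx7 regions and 2 of 1049 RYBP regions owed their kind to an overlap under 100 bp. A genome of the lists' build was not used here, so no sequence, CpG content or gene is given for these regions.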

How the data were processed

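Tools and build are known only per the submitters' processing notes, which name the read aligner Bowtie (0.12.7), the peak caller MACS (1.3.7.1) and mm9, without saying how each was run. The authors deposited, for each target, the start and end of every peak in bp, with no score or height; the unit is recorded as other. How duplicates were handled, whether reads were pooled, and the control and threshold of the calls are not stated there. The names of the lists hold the number 5 (RYBP) or 10 (Ring1B, Cbx7 and Suz12), whose meaning is not stated.

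Lists were matched to libraries by target. Peaks sharing at least 1 bp were joined, width was end minus start, and distances ran from region edge to peak edge. Shares carry 95% Wilson intervals and medians exact order-statistic intervals. The 4 tests were two-sided Fisher's exact tests, called at a Benjamini-Hochberg adjusted p below 0.05. The code was tested on simulated peaks. Regions were named 3 per rule: widest, most peaks, farthest from Cbx7 and RYBP, closest to either, fewest shared bp, and the windows of 200 kb with most regions. Members, tests and rules were chosen with earlier results of these data known, and the comparison at like length, the values by facing side and those of X against autosomes were added after the data were seen. Alternatives changed how peaks were joined, the lists, the distance and the chromosomes. Genes, sequence and CpG content were left out because the reference tables are of another build. Python 3.11.15, numpy 2.4.6, SciPy 1.17.1 and matplotlib 3.10.9 were used.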

Additional observations from a re-analysis of the deposited data

How the results depend on the processing

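The 15 results were recomputed under those of 9 alternative settings that apply to each, which gave 104 values. Of these, 74 were counted as unchanged. Shares and medians had to stay within the interval of the reported value, and odds ratios had to keep their call and direction. The number of regions had to change by no more than 1.5 times. Ignoring the RYBP list raised the number of regions from 2099 to 3151, their share of regions with Ring1B and Suz12 to 57.6%, the median widths to 1752 bp (region), 1517 bp (Ring1B) and 1583 bp (Suz12), and lowered the share with Cbx7 within 10 kb to 11.6%; results on distance to RYBP have no value there. Leaving out peaks in the lowest quartile of width of each list gave a share of 41.0%, widths of 1892, 1650 and 1731 bp in the same order, 84.8% of the region under both subunits, and 12.1% with Cbx7, 11.1% with RYBP and 80.8% with neither within 10 kb. Joining peaks within 1 kb takes out the regions that lie within 1 kb of a Cbx7 or RYBP peak. It gave a region width of 1723 bp and 7.998% with Cbx7, 10.3% with RYBP and 84.8% with neither. A distance of 5 kb gave 11.5%, 7.57% and 84.2%, and one of 50 kb gave 24.5%, 39.9% and 52.1%. For Cbx7 beside Ring1B-Suz12 against Ring1B-only regions, the odds ratio of 1.63 became 0.832 without the lowest quartile of width and 1.64, no longer called, at 1000 to 2000 bp. Against Suz12-only regions the uncalled 1.23 became 1.29 without X and Y and 1.64 at 1000 to 2000 bp, both called, but 1.03 with the RYBP list ignored and 1.045 at 50 kb, both uncalled. For RYBP, uncalled ratios crossed 1: 1.00 against Suz12-only without X and Y (main value 0.976), and 0.986 against Ring1B-only at 5 kb (main value 1.045). The cause was not tested. The width band and the setting that counts peak ends as part of the peak were chosen after the data were seen; the latter joined 1 touching pair. No paired analysis was possible because each target has 1 library. With 1 library per target, no replicate could be left out, and ignoring the RYBP list is the only setting that drops a library.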
